A study of Homo sapiens with 14 samples.

Results

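Transcripts longer than 6000 bases that were listed in all 8 PARS-seq read-start tables are described here. There were 269 of them among 4722 transcripts listed in all 8 tables, after leaving out uc022brd.2, a single long transcript that took between 26.0% and 59.4% of the read starts of a library. The members ranged from 6001 to 21760 bases with a median of 7169, and 79 of them exceeded 8000 bases. Transcripts of over 1000 and up to 6000 bases, called mid-length below (n = 3694), served as the comparison. The shortest members had 6001, 6004 and 6005 bases, at a mean of 2.47, 1.74 and 1.37 read starts per base after scaling to equal library totals, and the transcripts just below the limit had 5987, 5965 and 5963 bases, at 1.31, 1.01 and 18.8.

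The samples came from HepG2, a human hepatocellular carcinoma line, that had received either scrambled siRNA (control) or siADAR1, an siRNA against the RNA-editing enzyme ADAR1 (KD); the labels describe the transfection as stable. Poly-A RNA was probed in vitro with S1 nuclease or with RNase V1, with 2 replicates for each enzyme and condition. RNA-seq was made once per condition and Ribo-seq in duplicate. The study's methods call the PARS-seq replicates biological without saying whether they were separate cultures, and p-values measure the spread between these libraries.

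PARS-seq reads where a nuclease has cut. S1 nuclease cuts single-stranded RNA and RNase V1 cuts base-paired RNA, and the 5' end of each read, here called a read start, marks the base next to a cut. V1 over S1, a log2 ratio of read starts, is therefore higher where a stretch is more often paired. ADAR1 deaminates adenosine to inosine in double-stranded RNA, much of it formed by inverted repeats in long 3' UTRs. A long transcript offers more places to cut and more places to break than a short one, so its 5' and 3' parts can be represented unequally in a library.

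Library totals without uc022brd.2 ran from 47745133 to 80398148 read starts, and the 269 transcripts held 6.44% to 9.21% of them. ADAR itself, in RPKM (reads scaled for gene length and library size), was 40.7 and 46.8 in control against 15.1 in both KD replicates in the authors' PARS-seq means, and 54.8 against 15.4 in RNA-seq. In Ribo-seq it was 43.6 against 8.73 RPKM in replicate 1 but 55.5 against 44.0 RPKM in replicate 2. The defining markers of HepG2 were absent. All 9 liver markers found in the table, among them ALB, AFP, APOA1 and TTR, stayed at or below 0.0821 RPKM in every column and summed to at most 0.126 RPKM. Fibroblast or mesenchymal markers summed to between 139 and 682 RPKM, mostly VIM, keratinocyte markers to between 62.3 and 653 RPKM, mostly KRT17, and blood markers to at most 0.680 RPKM. Cells are therefore called by their label below, with this limit.

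The table of S1 control replicate 1 differed from the other 7. Of its 4722 transcripts shared with the rest, 4710 held at least 1 read start per base in that library, and this was true of all 269 members, while the other 7 tables together listed 2044 transcripts over 6000 bases. The 1775 long transcripts left out by that table alone had medians of 0.104 to 0.243 read starts per base in the other libraries. Being listed therefore required a high value in that library, and the main counts of calls by limma are also given without it, here or under the dependence on processing, with the median change by S1. The length classes, bins, windows, base calls and other medians that follow were computed with it only, apart from the values over the other 7 tables.

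The long transcripts were sparsely covered. Their median was 1.58, 1.65, 1.58 and 1.07 read starts per base in S1 control replicates 1 and 2 and S1 KD replicates 1 and 2, and 1.48, 1.34, 2.10 and 1.35 in the V1 libraries in the same order. A median of 16.9% to 28.6% of a member's bases had any read start in a library, against 22.1% to 35.3% for mid-length transcripts, and 35.9% of a member's bases had none in any of the 8 libraries. Between members the level ran from 0.226 to 92.1 read starts per base in single libraries.

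Read starts were concentrated in a few places. Each transcript was cut into 10 equal bins from 5' to 3'. The fullest bin of a member held a median of 35.0% of its read starts, and 52 members (19.3%, against 18.4% of mid-length transcripts) had over 50% in 1 bin. A single base held a median of 4.50%. The fullest bin was the same in all 8 libraries for 125 members, and it was the last bin for 42.

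The deepest named members ranged from strongly concentrated to fairly even. TNPO1, which encodes a nuclear import receptor (GRCh37 chromosome 5, 72112139 to 72212560, plus strand), had S1 control levels of 20.2 and 19.9 read starts per base, S1 KD levels of 17.5 and 8.40, and V1 levels of 13.3, 12.5, 13.9 and 7.84. These levels, and the other levels per base, are not scaled for library totals: in RPM, read starts scaled to a common library total, TNPO1 stood at 2205 and 2474 in the S1 control libraries and at 2277 and 1503 in the S1 KD libraries. The sixth bin of TNPO1 held 56.7% to 70.6% of its read starts in each library. DYNC1H1, the heavy chain of cytoplasmic dynein (chromosome 14, 102430910 to 102522780, plus strand), had S1 levels of 5.45, 14.0, 8.78 and 11.0 read starts per base and V1 levels of 5.14, 12.5, 9.03 and 12.3, in the order control replicates 1 and 2 and KD replicates 1 and 2. In DYNC1H1 replicate 2 was above replicate 1 in each of the 4 groups, and the last bin held 58.8% to 77.7% of read starts in replicate 1 and 82.6% to 87.0% in replicate 2.

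MTUS1, a microtubule-associated protein gene on chromosome 8, was the most uneven of these genes, with 90.8% to 98.9% of its read starts in the last bin. In the same order its S1 level was 4.18, 8.03, 8.08 and 6.55 read starts per base, and its V1 level was 4.47, 13.1, 11.0 and 17.3. CLTC, the clathrin heavy chain, PEG10, an imprinted gene derived from a retrotransposon, and HDLBP, the RNA-binding protein vigilin, completed the 6 deepest, at means of 8.38, 7.90 and 7.21 scaled read starts per base. The fullest bin of CLTC held 18.4% to 59.1% and that of HDLBP 18.8% to 39.2% of read starts.

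**Figure D1:**
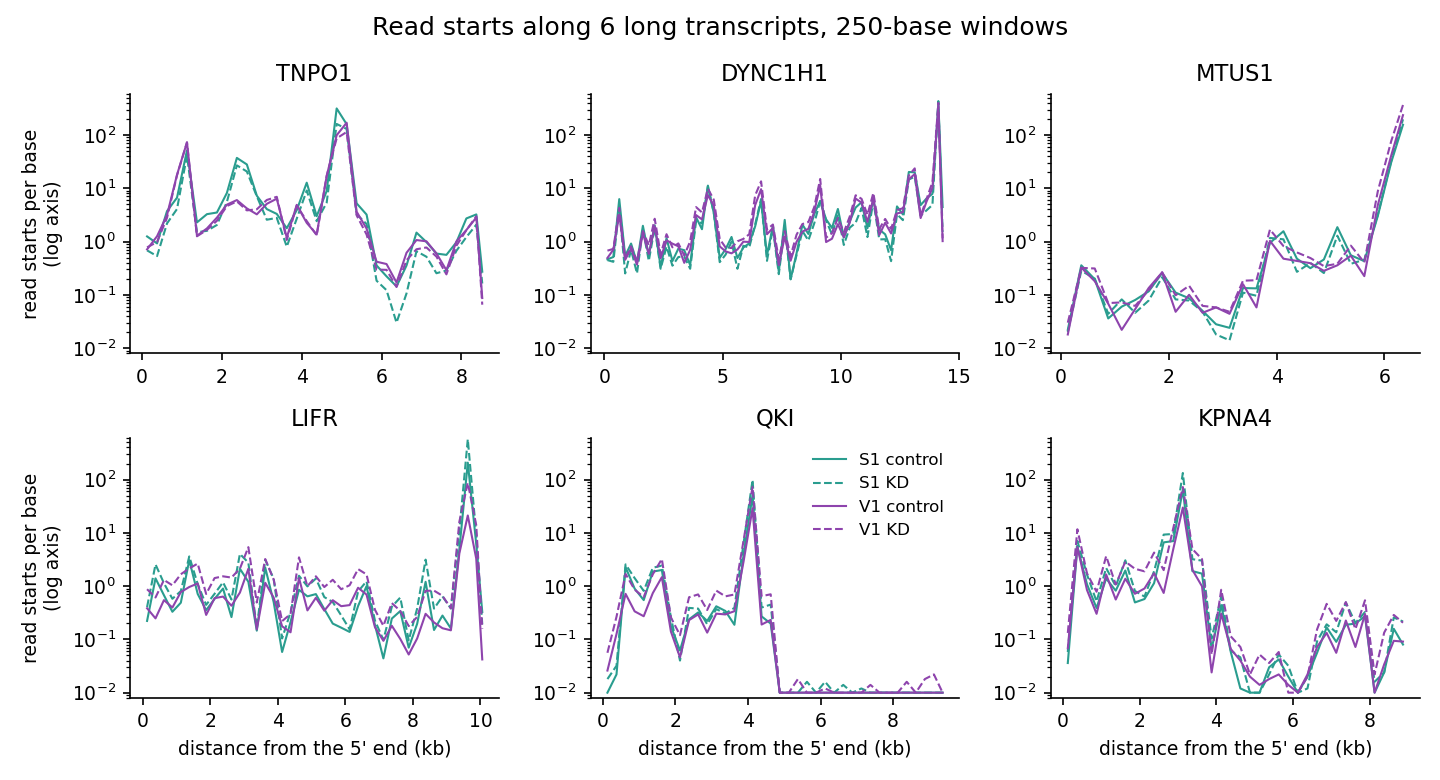
Read starts per base in 250-base windows along 6 long transcripts, unscaled means of the 2 replicates on a log axis, against distance from the 5' end in kb, with solid lines for control and dashed lines for KD, S1 in green and V1 in purple. Values below 0.01 are drawn at 0.01. One window stands far above most others in DYNC1H1, MTUS1, LIFR, QKI and KPNA4 in both conditions, with 44.5% to 80.5% of the read starts of DYNC1H1 and 39.95% to 92.4% of those of LIFR in single libraries.

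The 5 longest named members were UBR4 and HUWE1, both E3 ubiquitin ligases, DYNC1H1, MKI67, the proliferation marker Ki-67, and PHIP, a bromodomain protein, with 15882, 14770, 14361, 12507 and 11966 bases. UBR4 had 1.68, 2.04, 1.69 and 1.46 S1 read starts per base in control replicates 1 and 2 and KD replicates 1 and 2, and HUWE1 had 1.85, 2.21, 2.28 and 1.57. Apart from DYNC1H1 they stood within the range of ordinary members, with means of 1.60, 2.52, 1.94 and 0.991 scaled read starts per base. The last bin of UBR4 held 50.7% to 65.3% of S1 read starts and 33.1% to 43.9% of V1 read starts, so the libraries of the enzymes did not overlap there.

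The first comparison asked which long transcripts gained or lost read starts in KD. With S1, 51 of 269 passed the test (limma on log2 RPM, read starts scaled to a common library total, with a Benjamini-Hochberg adjusted p under 0.05 over all transcripts tested), 25 higher and 26 lower, a share of 19.0%. Over all 4720 transcripts tested the share was 16.2%, with 6.55% higher and 9.64% lower. At an unadjusted p under 0.05 there were 92 members with S1, against 29.4% over all tested, and 103 with V1, against 28.4%. With V1, 38 of 269 passed, 18 higher and 20 lower, a share of 14.1% against 11.3% over all 4715 tested, with 3.5% higher and 7.78% lower. The median change of the members was 0.12 (log2) with S1 and 0.09 with V1, against 0.00 and -0.03 over all transcripts tested. This excess of the median over all transcripts was not stable. Counted as covered bases, in which each base with a read start counts once, the median was 0.01 with S1 against 0.02 over all, and 0.05 with V1 against 0.00. Calls rose at that setting, to 90 with S1 (39 higher, 51 lower), against 20.4% over all. With V1 there were 75 (39 higher, 36 lower), against 14.8%. The S1 median was 0.03 without S1 control replicate 1, against 0.01 over all, and 0.01 without S1 KD replicate 1, against 0.00. It was 0.16 without S1 control replicate 2 and 0.18 without S1 KD replicate 2, each against -0.02. The V1 median was -0.02 without V1 KD replicate 1 and 0.18 without V1 KD replicate 2. Without V1 control replicate 1 or 2 it was 0.07, and the V1 median over all was -0.03 in each of these fits.

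Calls went the same way with both enzymes. These were separate libraries, but same-numbered S1 and V1 libraries deviated together across members, with r = 0.83 in control and 0.77 in KD. The enzymes are therefore not independent evidence. There were 16 members called higher with S1 and V1 and 18 called lower, and none was called in opposite directions, while over all transcripts 2.97% were called higher with both, 6.87% lower with both and 0% in opposite directions. Without S1 control replicate 1 the counts were 5 higher and 13 lower, against 1.78% and 4.58% over all, and without V1 KD replicate 2 they were 5 and 5, against 0.997% and 3.27%. The fit with the replicate number as a block (the replicate block) gave 51 higher and 35 lower, against 11.9% and 15.4%. Covered bases gave 32 and 36, against 5.08% and 7.88%. None was called in opposite directions under these settings.

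These counts moved with single libraries and with the scaling. Fewer members passed with S1 when S1 control replicate 1 or S1 KD replicate 2 was left out. With V1 fewer passed when V1 control replicate 1, V1 KD replicate 1 or V1 KD replicate 2 was left out. The share over all transcripts fell each time as well, so the loss was not particular to the members. When totals included uc022brd.2, which took more of each KD library than of the same-numbered control library, the median over all transcripts moved to -0.36 with S1 and -0.34 with V1, and the split became 6 higher and 50 lower with S1 and 2 higher and 16 lower with V1. With the replicate number as a block, S1 gave 89 calls (53 higher, 36 lower), a share of 33.1% against 30.8% over all tested (14.6% higher, 16.1% lower), and V1 gave 145 (82 higher, 63 lower), a share of 53.9% against 46.9% (21.1% higher, 25.7% lower). Over the long transcripts of the other 7 tables, without S1 control replicate 1, 131 were higher and 76 lower of 1895 tested with S1, a share of 10.9% against 8.96% over all in those tables (4.78% higher, 4.18% lower). With V1 197 were higher and 87 lower of 1935, a share of 14.7% against 10.5% (5.3% higher, 5.23% lower). The medians there were 0.10 with S1 and 0.21 with V1 for the long transcripts, against 0.06 and 0.13 over all lengths.

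The replicates did not show the same shift of the whole group. With S1, replicate 1 gave a median KD over control of 0.25 (log2) with 191 of 269 members above 0, and replicate 2 gave -0.05 with 122 above 0. With V1 the medians were 0.19 (173 above 0) and -0.02 (130 above 0). The order of the members was shared, however, since the changes in both replicates correlated across members with r = 0.88 for S1 and r = 0.93 for V1, where members of 1 library share its depth and scaling and no test was made.

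The shift was larger in the longer members in replicate 1. Up to 8000 bases (n = 190) the median S1 change was 0.18 in replicate 1 and -0.10 in replicate 2, and over 8000 bases (n = 79) it was 0.40 and 0.09. With V1 the values were 0.12 and -0.06 for the shorter bin and 0.36 and 0.11 for the longer. Among the 79 longest, 67 were above 0 in S1 replicate 1 and 46 in replicate 2, and with S1 14 (17.7%) were called higher and 4 (5.06%) lower, beside 6.55% and 9.64% over all transcripts tested. With V1 12 (15.2%) were called higher and 3 lower, beside 3.5% and 7.78%. These counts rest on single libraries: without S1 control replicate 1 the S1 calls were 4 higher and 2 lower, and without V1 control replicate 1, V1 KD replicate 1 or V1 KD replicate 2 the V1 calls were 4 higher and 0 lower each time. With totals that included uc022brd.2 they were 5 higher and 9 lower with S1 and 1 and 1 with V1. The replicate block gave 25 higher and 5 lower with S1 and 34 and 13 with V1, beside the shares over all under the block given above. In transcripts of over 1000 and up to 2000 bases the replicate 1 medians were -0.16 with S1 and -0.12 with V1.

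**Figure D2:**
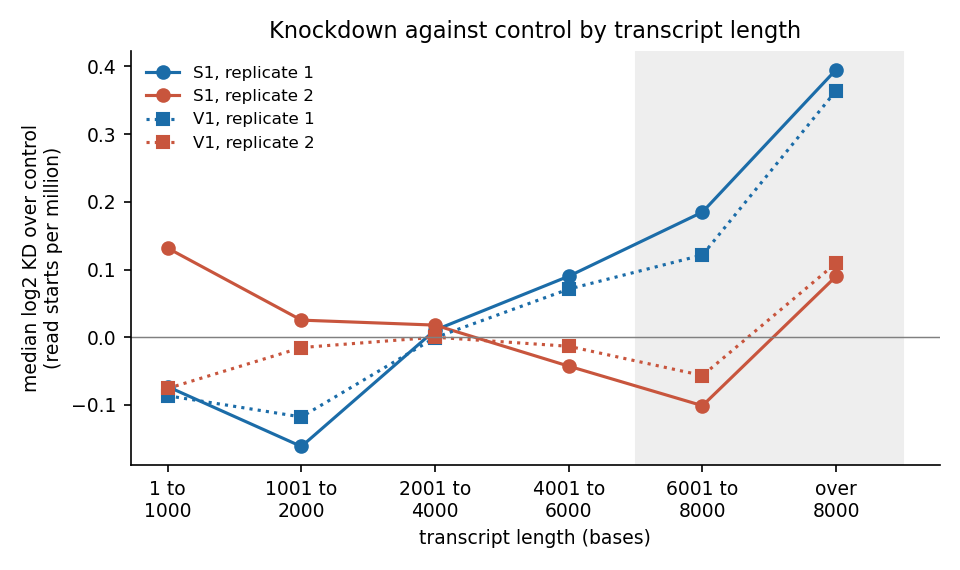
Median log2 KD over control of RPM by transcript length, 1 line for each enzyme and replicate, with the bins over 6000 bases shaded. In replicate 1 the medians climb from the second shortest length class to the longest, reaching 0.40 with S1 and 0.36 with V1, and in replicate 2 they stay between -0.10 and 0.13.

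LIFR, the receptor of leukemia inhibitory factor (chromosome 5, 38474770 to 38608456, minus strand), rose the most of the named members called with both enzymes. With S1 the control libraries gave 592 and 1084 RPM and the KD libraries 2576 and 3076 RPM, and with V1 the same groups gave 180 and 215 against 575 and 610 RPM. Both KD libraries were above both control libraries with each enzyme. The log2 change was 1.81 (SE 0.28, adjusted p = 3.45e-05) with S1 and 1.59 (SE 0.17, adjusted p = 0.00371) with V1 by limma. With S1 the last bin held 86.3% and 93.3% in control against 92.7% and 95.3% in KD. Without that bin the S1 changes were 1.22 and 0.99 and the V1 changes 1.19 and 0.97 in replicates 1 and 2.

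QKI, an RNA-binding regulator of splicing and mRNA stability (chromosome 6, 163835032 to 163999624, plus strand), had 190 and 251 RPM in the S1 control libraries against 501 and 539 RPM in KD. With V1 it had 150 and 164 RPM against 354 and 319 RPM. It rose by 1.25 (SE 0.22) with S1 and 1.10 (SE 0.16) with V1, at limma adjusted p-values of 0.000223 and 0.00969. The fifth bin held 79.2% to 92.3% of its read starts, and without it the S1 change was 0.73 and no longer passed.

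KPNA4, an importin alpha that carries cargo into the nucleus (chromosome 3, 160212795 to 160283359, minus strand), had 292 and 372 RPM in the S1 control libraries against 825 and 746 RPM in KD. With V1 it had 208 and 240 RPM against 453 and 479 RPM, again without overlap of the groups. It rose by 1.25 (SE 0.23) and 1.06 (SE 0.16), at limma adjusted p-values of 0.00029 and 0.0119. With totals that included uc022brd.2 the V1 changes of QKI and KPNA4 were 0.79 and 0.75 and did not pass.

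KIAA0930 (chromosome 22, 45588125 to 45636775, minus strand) had the largest fall among named members called with both enzymes. S1 gave 99.0 and 120 RPM in control against 33.9 and 40.1 RPM in KD, and V1 gave 119 and 159 RPM against 45.8 and 58.5 RPM. Its log2 changes were -1.56 (SE 0.22, adjusted p = 9.97e-06) with S1 and -1.41 (SE 0.21, adjusted p = 0.0107) with V1 by limma, and it changed by -1.57 and -1.46 with S1 when its fullest bin was left out.

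KIF3B, a subunit of the kinesin-2 motor (chromosome 20, 30865454 to 30922814, plus strand), had 96.9 and 103 RPM in the S1 control libraries against 50.9 and 48.0 RPM in KD. With V1 it had 104 and 99.9 RPM against 51.8 and 46.8 RPM, so the groups did not overlap with either enzyme. It changed by -1.02 (SE 0.21) and -1.05 (SE 0.16), at limma adjusted p-values of 0.00125 and 0.0109. FAM73A, a mitochondrial outer membrane protein gene, had 91.8 and 88.2 RPM against 56.5 and 38.9 RPM with S1, and 99.9 and 78.6 RPM against 51.1 and 37.1 RPM with V1. FAM73A changed by -0.94 and -1.02, and its calls did not pass without S1 KD replicate 2 (-0.67), without V1 control replicate 1 (-0.85) or without V1 KD replicate 2 (-0.79).

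Counted as covered bases, the changes of these 6 genes were smaller and still passed. LIFR then had 0.57 with S1 and 0.59 with V1, QKI 0.42 and 0.53, KPNA4 0.44 and 0.49, KIAA0930 -0.72 and -0.65, KIF3B -0.63 and -0.58, and FAM73A -0.54 and -0.55. Without S1 control replicate 1 the S1 change of LIFR was 1.38 and still passed.

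The other named members called with both enzymes changed by less. LIMCH1, an actomyosin regulator, the amino acid transporter SLC38A1 and the chromatin remodelling subunit BAZ1B rose by 0.68 to 0.90 with S1 and 0.76 to 0.87 with V1. HBS1L, which rescues stalled ribosomes, the sorting nexin SNX1, the kinase MAP4K4, the taurine transporter SLC6A6 and WDR26 changed by -0.87 to -0.61 with S1 and -0.89 to -0.63 with V1. These calls were less stable than those of the 6 genes above. Of the V1 calls, those of LIMCH1, SLC38A1, SNX1, MAP4K4, SLC6A6 and WDR26 were lost without any one of the 4 V1 libraries, and the S1 call of WDR26 without any one of the 4 S1 libraries. Among members without a symbol, uc003cgw.3 rose by 1.24 with S1 and 1.39 with V1, uc003mxp.1 rose by 1.17 and 1.18, uc001ffh.3 changed by -1.52 and -1.46, and uc001sui.4 by -1.30 and -1.22.

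A symbol was at hand for 121 of the 269 members, from a list that had been chosen on a structure change in the same libraries, so the named members are no random subset. Of these, 9 were called higher and 13 lower with S1, and 7 higher and 9 lower with V1. Beside these stand the shares of 16.2% with S1 and 11.3% with V1 over all transcripts. The lists are short against these shares, so the counts below describe them and set none apart. Of the 75 members in the lists 11 were called with S1 and 10 with V1. Without S1 control replicate 1 the S1 count was 5, a share of 6.67% against 7.75% over all, and without V1 control replicate 1 or V1 KD replicate 2 the V1 count was 3. Under the replicate block 19 were called with S1 (25.3% against 30.8% over all) and 36 with V1 (48.0% against 46.9%). Among 8 members of the cytoskeleton and motor list LIMCH1 rose with both enzymes and KIF21A, a kinesin, fell with S1. The call among 7 surface and matrix genes was LIFR, that among 13 chromatin and transcription genes BAZ1B, and that among 7 ubiquitin pathway genes the deubiquitinase CYLD, which fell with V1.

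Of 7 nuclear pore and transport genes KPNA4 rose with both enzymes and TPR, a nuclear basket protein, with V1, and the list's median was 0.18 with S1 and 0.17 with V1. Of 10 RNA-binding and translation genes QKI rose with both and GIGYF2, a translational repressor, with S1. Of 9 transporters and enzymes SLC38A1 rose with both, SLC6A6 fell with both and the phosphodiesterase PDE3B fell with S1, with list medians of -0.35 and -0.52. MAP4K4, which fell with both enzymes, was the call among 6 kinases and signalling genes, and none of 8 Golgi and endocytosis genes was called, at medians of -0.27 and -0.18.

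The genes of 103 named members were found in the table of RPKM values. KIF3B had 14.6 RPKM in control and 6.73 RPKM in KD in RNA-seq, 3.45 against 2.56 RPKM in Ribo-seq replicate 1 and 11.7 against 6.26 RPKM in replicate 2. QKI had 1.13 against 2.21 RPKM in RNA-seq, and 1.96 against 3.18 RPKM and 2.35 against 4.19 RPKM in the Ribo-seq replicates. For both genes the direction matched that of the S1 and V1 read starts in each of these assays. Of the 9 named members called with both enzymes that the table held, the direction matched in 8 in RNA-seq, in 9 in Ribo-seq replicate 1 and in 7 in replicate 2. SLC6A6, called lower in read starts, had 19.1 against 21.7 RPKM in RNA-seq. FAM73A had 1.47 against 1.13 RPKM in RNA-seq, 7.63 against 4.60 RPKM in Ribo-seq replicate 1 and 5.03 against 5.45 RPKM in replicate 2, so its Ribo-seq replicates went opposite ways.

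Over the 101 of these genes at a mean RPKM of at least 1, the median log2 KD over control in RNA-seq was -0.14 on the log2(RPKM + 1) scale, with 32 higher and 69 lower, against -0.01 over 10945 genes. Ribo-seq gave -0.06 in replicate 1 and 0.10 in replicate 2 over 103 genes, against -0.02 and 0.15 over all genes. The authors' PARS-seq means gave 0.02 in replicate 1 and -0.14 in replicate 2, against 0.04 in each over all genes. In that table the named members were thus not above all genes. Across the 103 genes the change in read starts correlated with that in RNA-seq with r between 0.56 and 0.59 for the 4 enzyme and replicate pairs, with Ribo-seq replicate 1 between 0.51 and 0.58, and with Ribo-seq replicate 2 between 0.20 and 0.33, the replicate in which ADAR differed least, whose part in this was not tested. Genes are not independent replicates, and RNA-seq had 1 library per condition, so no test was made.

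The share of read starts along the transcripts followed the replicate number more than the condition. The last bin held a median of 4.17% and 4.63% in replicate 1 of S1 control and KD and 6.91% and 7.02% in replicate 2, and with V1 3.42% and 4.02% against 6.35% and 5.98%. The first bin went the other way, at 5.51% and 4.83% against 3.90% and 3.86% with S1 and 5.93% and 5.50% against 4.50% and 4.02% with V1. Replicate 2 was higher than replicate 1 in the last bin and lower in the first with each enzyme and condition.

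**Figure D3:**
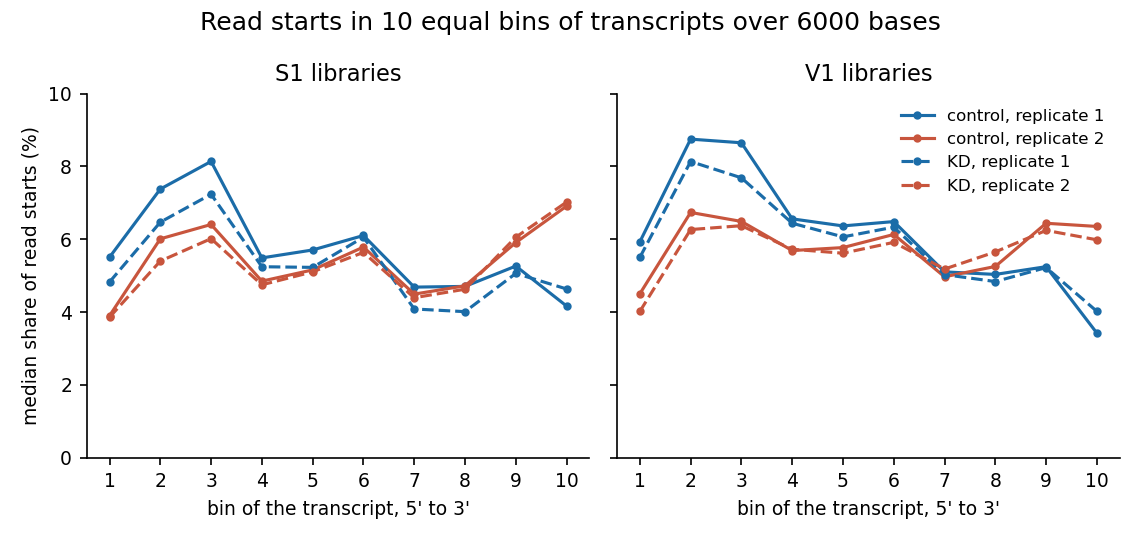
Median share of a transcript's read starts in each bin from 5' to 3' for 269 long transcripts, S1 libraries on the left and V1 libraries on the right, blue for replicate 1, red for replicate 2, solid for control and dashed for KD. In the last bin both replicate 2 libraries of each enzyme lie at 5.98% to 7.02% and both replicate 1 libraries at 3.42% to 4.63%.

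Counted in bases, the last 1000 had a median density of 0.460 and 0.544 of the transcript's own mean in S1 replicate 1 (control and KD) and 0.781 and 0.788 in replicate 2, and of 0.398 and 0.485 against 0.740 and 0.704 with V1. The third 1000 bases from the 3' end differed less between replicates, at 0.535 to 0.621 in all 8 libraries. The first 1000 bases reached 0.592 to 0.703 in replicate 1 and 0.450 to 0.524 in replicate 2.

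The log2 ratio of read starts in the last 3 bins to those in the first 3 (3' over 5') summarises this for each transcript. Its median was -0.25 and 0.35 in S1 control replicates 1 and 2, -0.21 and 0.44 in S1 KD, -0.58 and 0.08 in V1 control and -0.47 and 0.25 in V1 KD. In 104 members (38.7%) all 4 replicate 2 libraries were above all 4 replicate 1 libraries, and in none was the reverse found, whereas all KD libraries were above all control libraries in 6 members (2.23%) and below them in 2 (0.743%), beside 1.41% and 0.108% of mid-length transcripts. The replicate split was also present in mid-length transcripts, in 30.1% of them, and its cause was not tested.

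No member passed the threshold for a change of the 3' over 5' ratio in KD. With S1, limma called 0 of 269 at an adjusted p under 0.05 (0% over all 4675 tested) and 5 at an unadjusted p under 0.05 (1.99% over all), and with V1 0 (0.0429% over all 4663 tested) and 2 (1.46% over all). The median standard error of the change was 0.646 with S1 and 0.654 with V1 on the log2 scale, so a change had to be well above 1 (2-fold) to pass, and 0 calls say little about whether the ratio changed. With the replicate number as a block 11 were called with S1 (8 higher, 3 lower), against 4.75% over all tested (4.13% higher, 0.62% lower), and 7 with V1 (5 higher, 2 lower), against 2.83% (2.23% higher, 0.6% lower). These were 4.09% and 2.6% of the members, near the shares over all.

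V1 and S1 also differed in this ratio. With V1 it was below that with S1 in 36 members and above it in 11, by limma with enzyme and condition as terms, a share of 17.5% against 33.3% over all transcripts (21.7% lower and 11.6% higher). The median difference was -0.20, against -0.21 over all tested. Counted as covered bases 13 were below and 1 above, and with each base capped 21 were below and 2 above. Fewer calls were thus left, most of all on the side above. Shares over all transcripts were not set beside these counts, so a general loss of calls is not told apart from one of the members. With the replicate number as a block 165 were called, 56 higher and 109 lower, a share of 61.3% against 67.7% over all tested (25.1% higher, 42.6% lower). A member that was not called is not shown to be alike in both enzymes. All V1 libraries were below all S1 libraries in 43 members (16.0%) and above them in 17 (6.32%), beside 19.7% and 7.93% of mid-length transcripts.

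LIFR had the largest difference among members with a symbol. Its 3' over 5' ratio was 3.63, 4.93, 4.78 and 5.65 with S1 and 1.64, 2.51, 2.44 and 3.31 with V1 (control replicates 1 and 2, then KD), a difference of -2.27 (SE 0.40, limma adjusted p = 0.000242). CLTC had 0.24, 1.32, 0.66 and 1.60 with S1 and -1.50, -0.14, -0.90 and 0.03 with V1, a difference of -1.59 (SE 0.40, limma adjusted p = 0.00427). In both, the values of replicate 2 were above those of replicate 1 in every group. The difference of LIFR was -0.71 with capped bases, -0.30 for covered bases and -0.60 for bins 8 and 9 over 2 and 3, and that of CLTC was -0.53 with capped bases, and none of these passed.

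The most 3'-weighted named members were MTUS1, TSC22D1, a transcriptional regulator, and SLC26A2, a sulfate transporter, with mean ratios of 7.68, 5.59 and 5.40. For MTUS1 the ratio was 6.32, 7.78, 7.18 and 8.32 with S1 and 6.35, 8.86, 7.25 and 9.35 with V1. The enzymes overlapped across replicates, and V1 was above S1 in each of the 4 same-numbered pairs, with an adjusted p of 0.108 by limma with the replicate block. The most 5'-weighted were ITSN1, an endocytic scaffold, FXR1, an RNA-binding relative of the fragile X protein, and QKI, with -10.58, -8.34 and -7.17. ITSN1 had no read start in its last bin in any library, and QKI had at most 0.0492% there, so these stretches were almost unread in both conditions. By the test the V1 ratio was below S1 in FXR1 by 1.01 (SE 0.36, limma adjusted p = 0.0341) and above it in QKI, while MTUS1, TSC22D1, SLC26A2 and ITSN1 were not called. The last 3 bins held 50 to 134 read starts a library in FXR1, 7 to 26 in QKI and 1 to 6 in ITSN1, so the ratios of QKI and ITSN1 rest on a handful of read starts. With the replicate number as a block TSC22D1 and ITSN1 also passed, both lower with V1. The FXR1 call was lost without any one of 6 of the 8 libraries, and the QKI call without S1 control replicate 1, V1 control replicate 2 or V1 KD replicate 2.

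The V1 over S1 ratio of whole transcripts differed more between members than between replicates. Its median (log2) was 0.17 and 0.06 in the control pairs and 0.12 in both KD pairs. It was above 0 in all 4 enzyme pairs for 133 members (49.4%) and below 0 in all 4 for 72 (26.8%), beside 49.9% and 26.5% of mid-length transcripts. The 0 of this ratio is set by the library totals: with totals that included uc022brd.2 the medians were -0.09 and -0.12 in the control pairs and -0.21 and 0.09 in the KD pairs, so the sign depends on that choice. Members differed from each other with an SD of 0.431, while replicates of 1 member differed with a median SD of 0.0891.

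The change of V1 over S1 in KD was called for 0 of 269 members by limma (interaction of enzyme and condition, adjusted p under 0.05), for 0 with voom weights and for 0 with the replicate block, and 1 member had an unadjusted p under 0.05. Over all 4720 transcripts 0 were called and 0.614% had an unadjusted p under 0.05. The median change was -0.07 in replicate 1, with 95 members above 0, and 0.03 in replicate 2, with 161 above 0. There were 58 members above 0 in both replicates, 71 below 0 in both and 140 split, and the changes correlated across members with r = 0.13. With totals that included uc022brd.2 the medians were -0.14 and 0.19. The median standard error was 0.249. Neither this fit nor its block, which has its own term for each enzyme, paired the S1 and V1 libraries of the same number. Across members the levels of those libraries deviated together, with r = 0.83 in control and 0.77 in KD. The standard error therefore holds a spread that same-numbered libraries share, and 0 calls do not show that the ratio was unchanged.

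Single members lay far apart in the ratio itself. LIFR had -1.72 and -2.33 in control and -2.16 and -2.33 in KD, far more S1 than V1 in all 4 pairs, and the change in KD was -0.45 and 0.00 in replicates 1 and 2. HUWE1 stood on the other side, at 0.63 and 0.48 in control and 0.73 and 0.56 in KD. HDLBP had 0.24 and 0.24 in control and 0.22 and 0.24 in KD, nearly level in all 4.

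Along the transcripts, the last bin had the lowest ratio. There the median V1 over S1 was -0.04 and -0.02 in the control pairs and -0.09 and -0.03 in the KD pairs, against 0.16 to 0.39 in each of the other 9 bins of these pairs. In 130 members (48.3%) the last bin was below the rest of the transcript in all 4 pairs, against 37.0% of mid-length transcripts, and in 68 (25.3%) it was below in none. The last bin was also the lowest of the mid-length transcripts, at 0.08, 0.06, 0.02 and -0.02. The first bin of the long transcripts had 0.34, 0.22, 0.27 and 0.24, lower than the 0.56, 0.59, 0.62 and 0.49 of the shorter transcripts. In the median of either replicate no bin moved by more than 0.07 in KD.

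**Figure D4:**
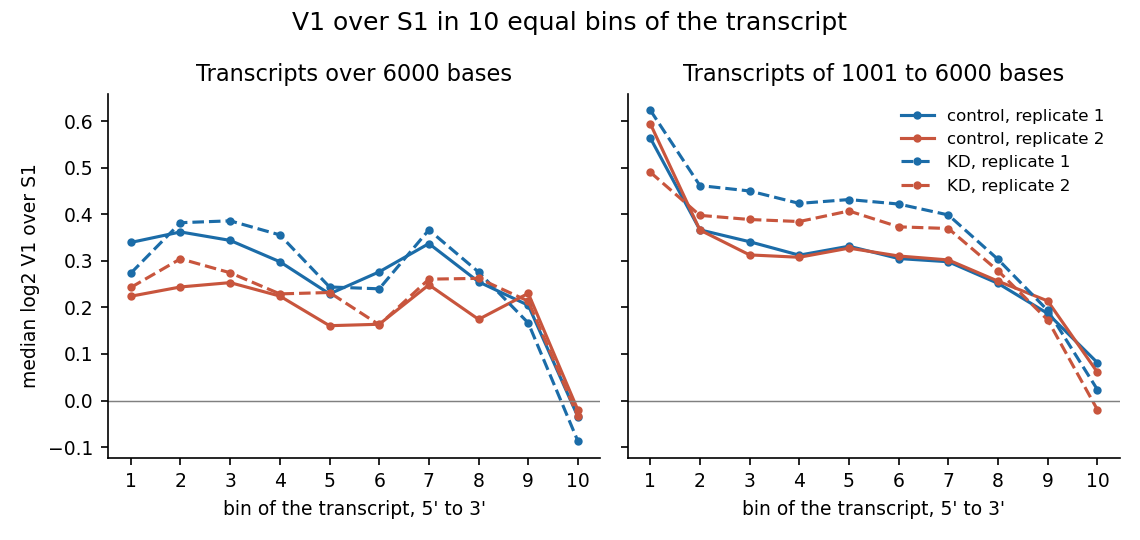
Median log2 V1 over S1 in each bin from 5' to 3', transcripts over 6000 bases on the left and mid-length transcripts on the right, 1 line for each condition and replicate. Among long transcripts the last bin lies between -0.09 and -0.02 and the other bins between 0.16 and 0.39, and control and KD run together.

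The position of the coding part could be set beside these profiles for 89 members, by matching symbols to GENCODE transcripts on GRCh37 of a length within 100 bases. Their 3' UTR took a median of 51.3% of the length, from 2.05% in UBR4 to 93.7%. In the 78 with at least 500 bases of each, V1 over S1 was 0.22 and 0.19 in the coding part of the controls and 0.05 and 0.05 in the 3' UTR, and in KD it was 0.20 and 0.22 against 0.04 and 0.04. The 3' UTR was the lower in 49 and 48 of 78 members in control and in 52 and 51 in KD. The change in KD was 0.00 and 0.07 in the coding part and -0.07 and -0.01 in the 3' UTR for replicates 1 and 2, and the replicates differed from each other by about as much.

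Read starts per base in the 3' UTR relative to the coding part again split by replicate number. The median log2 ratio was -0.81 and -0.13 in S1 control, -0.66 and -0.25 in S1 KD, -0.84 and -0.08 in V1 control and -0.75 and -0.24 in V1 KD. DYNC1H1 had 67.4 and 264 S1 read starts per base in its 654-base 3' UTR in control and 151 and 214 in KD, against 2.10 to 3.03 in its coding part. In LIFR the S1 density of the 3' UTR was 6.51 and 11.0 per base in control against 24.7 and 21.9 in KD, and that of the coding part 1.12 and 0.841 against 2.11 and 1.05.

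At the scale of 100-base windows the profiles were stable. The median Spearman correlation over windows of a member was 0.929 to 0.943 between replicates, 0.949 to 0.957 between control and KD of the same number and 0.817 to 0.834 between S1 and V1. V1 over S1 of the windows correlated between replicates with a median r of 0.75 in control and 0.69 in KD. The change of this ratio in KD correlated with a median r of 0.08, with 183 of 269 members above 0. Windows of 1 transcript are not independent, and these values are descriptive.

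The last measure counts bases. A base was called double-stranded (DS) or single-stranded (SS) when its V1 share of read starts departed from that of the library pair (2-sided Fisher's exact test per base, p under 0.05), and DS/(DS+SS) was taken per transcript. Over the 269 members the control medians were 66.5% and 64.6% and the KD medians 59.2% and 55.7%. The median difference was -7.36 percentage points in replicate 1 and -9.20 in replicate 2, and 259 members were lower in both. Mid-length transcripts gave -5.39 and -7.96, and 3136 of 3685 were lower in both, so the fall was not particular to the members.

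This difference moved with library depth. V1 made up 44.9% and 45.3% of the read starts of the control pairs and 55.1% of both KD pairs, and a base read by V1 alone needed 4 read starts to be called DS in control and 6 in KD, while a base read by S1 alone needed 6 and 4 to be called SS. When each library was thinned to the smallest total, the differences became 0.769 and 10.4 percentage points, at needs of 5 for DS and 6 for SS in all pairs but control replicate 2, where they were 6 and 5. With thinning and a doubled 1-sided p, the needs were 6 and 6 in all 4 pairs, and the medians were 60.4% and 58.1% in control and 61.0% and 59.6% in KD. The differences were then 0.738 and 0.653 percentage points, with 98 members higher in both replicates, 52 lower in both and 119 split. Of 3669 mid-length transcripts 1118 were higher in both, 818 lower in both and 1733 split. With equal needs the KD median was not below the control median in either replicate.

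**Figure D5:**
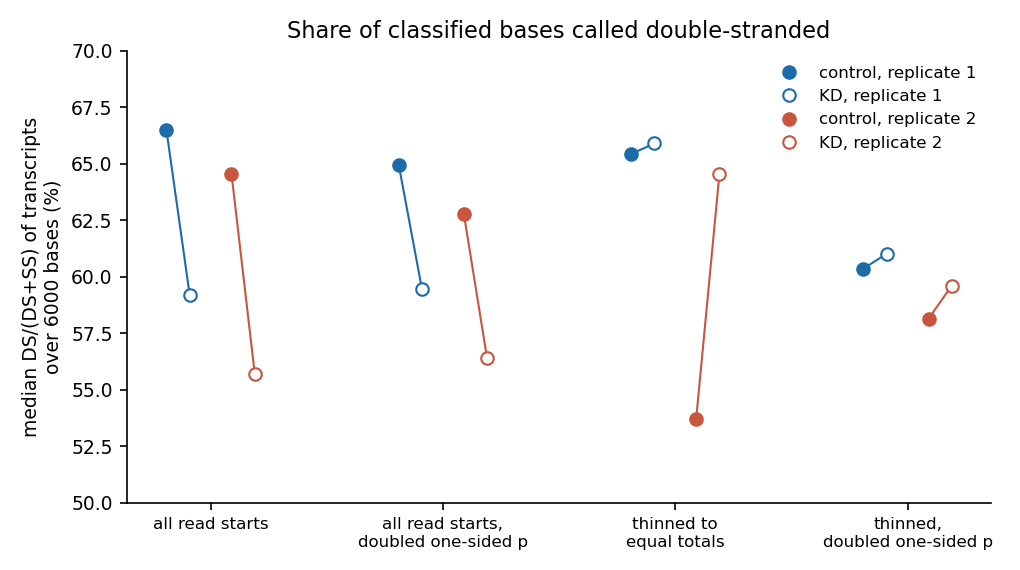
Median share of classified bases called DS in 269 long transcripts (vertical axis from 50% to 70%), filled points for control and open points for KD, blue for replicate 1 and red for replicate 2, under 4 ways of counting. With all read starts KD lies below control in both replicates, and with equal totals and a doubled 1-sided p the medians are 60.4% and 58.1% in control and 61.0% and 59.6% in KD.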

How the data were processed

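The authors trimmed reads (cutadapt), aligned them with Bowtie2 in local mode to UCSC knownCanonical transcripts of hg19, kept unique alignments with an ungapped 5' end, and deposited the number of read starts at each base, without scaling. They also deposited a table of RPKM values on RefSeq genes from coverageBed, whose PARS-seq columns are the authors' means over S1 and V1. Versions of these tools are not given in the sources used here, and 0 columns of other samples were present. The RPKM table holds no read counts, so its values are given without counting intervals.

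Read starts were summed per transcript, scaled to totals without uc022brd.2 and tested on a log2 scale, after adding 0.5, by limma 3.58.1 (R 4.3.3) with its trend option. A transcript was tested if 2 libraries reached the equivalent of 10 read starts in a library of median depth and the sum was at least 15. The 3' over 5' ratio needed a mean of 20 read starts in both ends together, so 1 end could hold few. P-values were adjusted by Benjamini-Hochberg over all transcripts tested. Reads carry no molecular identifiers, so read starts are not independent molecules. The tests were tried on simulated data, where those of whole transcripts recovered most of the set changes and those of the 3' over 5' ratio very few. Some unchanged transcripts were called there too, in the largest number by the V1 test of whole transcripts. For RPKM, 1 was added before the log, genes under a mean of 1 were left out of the medians, and no test was made.

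The labels number the libraries. Same-numbered libraries deviated together from their group means in all 6 pairings of the 4 PARS-seq groups, with r from 0.454 to 0.731 over all transcripts for the level and from 0.214 to 0.415 for the 3' over 5' ratio, so the main limma counts are also given with the replicate number as a block where it moved them. With 2 numbers and no word of it in the labels, this pairing is a hint from the data, not from the design.

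The members and gene lists were chosen with earlier results of these data known. Symbols came from the identifier columns of a supplementary list of 1997 pairs. Named are the 6 deepest and 5 longest members with a symbol, the 3 largest rises and falls among those called with both enzymes, the 3 highest and lowest 3' over 5' ratios, any called for V1 over S1 (none), calls of the functional lists, and, chosen after their values were seen, the other named members called with both enzymes and LIFR and CLTC for the difference between enzymes. Alternatives were another scaling, filter, added number, voom weights, covered or capped bases, other ends, other lengths, the replicate block and leaving out each library. Sequences of the transcripts were not used here.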

Additional observations from a re-analysis of the deposited data

How the results depend on the processing

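The S1 count of 51 and the V1 count of 38 kept within 1.5 times under TMM or median-of-ratios scaling, no filter, 5 added in place of 0.5, voom weights, capped bases and omission of the fullest bin. Other settings moved them. With S1 the count was 90 for covered bases, 89 with the replicate block, 89 for members over 5000 bases, 18 over 8000 bases and 207 over the other 7 tables, and 22 to 50 when 1 library was left out. With V1 it was 18 with totals that included uc022brd.2, 75 for covered bases, 145 with the replicate block, 62 over 5000 bases, 15 over 8000 bases, 284 over the 7 tables and 10 to 30 when 1 library was left out. The 34 calls with both enzymes became 18 with totals that included uc022brd.2, 68 for covered bases, 86 with the replicate block, 56 over 5000 bases, 13 over 8000 bases, 170 over the 7 tables and 10 to 27 when 1 library was left out. Where a library is left out, the lone sample of its group is assumed to vary like the others.

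The 3' over 5' calls in KD were 0 in both enzymes except with the replicate block (11 with S1, 7 with V1) and over the 7 tables (6 and 11). For V1 against S1 the 47 calls became 83 for the last 5 bins over the first 5, 14 for covered bases, 23 for capped bases, 165 with the replicate block, 84 over 5000 bases, 9 over 8000 bases and 190 over the 7 tables, and 33 to 57 when 1 library was left out. The change of V1 over S1 had 0 calls under each alternative run, the replicate block included, and none of these paired S1 with V1 libraries of the same number. For the named members run here the block added the 3' over 5' calls of TSC22D1 and ITSN1 and lost no call. The 7 tables and the omission of the fullest bin were chosen after seeing the data, as were the settings of DS/(DS+SS). For that share the difference of -7.36 in replicate 1 became -5.26 with a doubled 1-sided p, 0.769 with thinning and 0.738 with both, and that of -9.20 in replicate 2 became -7.18, 10.4 and 0.653. With totals that included uc022brd.2 they were -8.56 and -4.09, with 229 of 269 members lower in both, beside 2789 of 3685 mid-length transcripts.

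For the 6 genes and 4 members without a symbol given above, 293 of 300 values of KD against control kept their direction and side of the threshold and 7 no longer passed, while covered bases shrank the sizes as given above. For 13 other named members with 21 calls, 224 of 315 did and 91 no longer passed: 61 of 84 with a library left out, 12 of 21 with totals that included uc022brd.2, 18 of 189 under other settings and 0 of 21 with the block. For the 3' over 5' ratio of V1 against S1, 102 of 128 did, 18 no longer passed, 5 passed only in the alternative and 3 reversed, none of them called: MTUS1 to -0.62 for bins 8 and 9 over 2 and 3 and to -0.17 for covered bases, and SLC26A2 to -0.15 for covered bases. The causes were not tested. At 1 to 2 read starts per base, calls of single bases rest on few read starts.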
